A study of Mus musculus with 12 samples.

Results

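The subject is the Cyp3a family of cytochrome P450 enzymes and their regulator, the pregnane X receptor (PXR, gene Nr1i2), in mouse liver. The 8 genes were Cyp3a11, Cyp3a13, Cyp3a16, Cyp3a25, Cyp3a41a, Cyp3a44, Cyp3a59 and Nr1i2. They came from a list chosen with earlier results of these data known, and were found on the arrays through the RefSeq transcript of each probe. All 8 had a probe, 1 probe each, among 45616 genes on the array, and 7 of the 8 were among the 26396 genes tested. A gene here is a gene symbol, 22911 in all on the array, or the accession of a transcript that matched no symbol. Cyp3a44 was not tested because its probe was above background on too few arrays. The closest other family members were Cyp3a57, with 1 probe, and Cyp3a41b, with 0 probes.

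Liver RNA of 12 male mice was measured on one-colour Agilent arrays, 1 array per mouse and 3 mice in each of 4 groups. The groups were IAP knockout (Akp3-/-) mice given IIAEK, IAP knockout mice given vehicle, wild-type mice given IIAEK, and wild-type mice given vehicle, here called KO IIAEK, KO vehicle, WT IIAEK and WT vehicle. IAP is an alkaline phosphatase of the intestine, and IIAEK is a peptide of 2 isoleucines, alanine, glutamic acid and lysine, named by its one-letter codes and given by mouth at 600 mg/kg per day. Vehicle was 5 g/L carboxymethylcellulose sodium salt, and every mouse was dosed for 14 days from 7 weeks of age and went without food for 8 h before liver was collected. One label field gives weeks in place of days for the length of dosing, and the 14 days of the sample titles were used. The labels name neither the strain nor the cells in which Akp3 was lost, and nothing in them says whether the mice of a group shared a litter or cage.

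PXR is a nuclear receptor that binds steroids, bile acids and many drugs, pairs with a retinoid X receptor, and switches on genes for the uptake, oxidation, conjugation and export of such compounds. Genes of the Cyp3a family are its best known targets in liver. Cyp3a11 is the main inducible member in adult mouse liver, while Cyp3a16 is known chiefly from fetal and newborn liver, and Cyp3a41a and Cyp3a44 are known as female-predominant in adult mice.

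The promoters are shown because the family falls into sequence groups, and several members varied together across the arrays. The windows are the 250 bases before the RefSeq transcription start in the build GRCm38.p6, written 5′ to 3′ on the strand of the gene. Capitals mark nuclear receptor half-sites, the letters AGTTCA or AGGTCA or their reverse complements TGAACT and TGACCT. The windows lie at chr5:145879855-145880104 for Cyp3a11, chr5:145469724-145469973 for Cyp3a16, chr5:145805875-145806124 for Cyp3a44 and chr5:146009619-146009868 for Cyp3a25, all on the minus strand, and at chr5:146079008-146079257 on the plus strand for Cyp3a59. Cyp3a11 is shown as the most studied member, Cyp3a16 as the gene whose levels tracked it most closely, and Cyp3a44 as a near copy of the Cyp3a16 window with other levels.
Cyp3a11: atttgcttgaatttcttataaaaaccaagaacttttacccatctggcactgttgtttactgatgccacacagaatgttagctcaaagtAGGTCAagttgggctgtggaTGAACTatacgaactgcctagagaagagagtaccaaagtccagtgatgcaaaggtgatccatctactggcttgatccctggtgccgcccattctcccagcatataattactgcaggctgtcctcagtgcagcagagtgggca
Cyp3a16: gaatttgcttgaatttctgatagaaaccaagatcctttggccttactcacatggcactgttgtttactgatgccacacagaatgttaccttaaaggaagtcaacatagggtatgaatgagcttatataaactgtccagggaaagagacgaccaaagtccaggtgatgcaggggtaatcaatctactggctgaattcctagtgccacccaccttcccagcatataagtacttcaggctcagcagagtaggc
Cyp3a44: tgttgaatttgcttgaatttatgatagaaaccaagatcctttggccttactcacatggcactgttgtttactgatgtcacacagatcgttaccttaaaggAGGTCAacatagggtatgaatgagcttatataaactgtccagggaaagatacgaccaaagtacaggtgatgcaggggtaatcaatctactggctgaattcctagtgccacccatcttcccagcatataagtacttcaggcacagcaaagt
Cyp3a25 and Cyp3a59 are shown as a pair that is nearly identical in sequence.
Cyp3a25: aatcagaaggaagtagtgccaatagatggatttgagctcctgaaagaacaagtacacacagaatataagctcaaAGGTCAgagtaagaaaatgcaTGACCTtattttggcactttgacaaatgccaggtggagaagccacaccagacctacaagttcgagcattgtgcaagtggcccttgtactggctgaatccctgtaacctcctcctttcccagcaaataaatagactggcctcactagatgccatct
Cyp3a59: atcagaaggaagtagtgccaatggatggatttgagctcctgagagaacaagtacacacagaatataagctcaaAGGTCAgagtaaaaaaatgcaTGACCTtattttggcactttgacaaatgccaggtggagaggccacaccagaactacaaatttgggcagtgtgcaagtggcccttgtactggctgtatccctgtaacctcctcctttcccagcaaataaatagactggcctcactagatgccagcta

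In one group of promoters, that of Cyp3a16 was identical to that of Cyp3a41a at 90.9% of aligned columns and to that of Cyp3a44 at 92.9%. Cyp3a41a and Cyp3a44 shared 94.4%, Cyp3a41a and Cyp3a41b shared 99.6%, and Cyp3a11 and Cyp3a16 shared 76.2%. In the other group, Cyp3a25 and Cyp3a59 shared 94.8%, Cyp3a59 and Cyp3a57 shared 90.1%, and Cyp3a25 and Cyp3a57 shared 88.9%. Between the groups identity was lower, with 52.0% for Cyp3a11 and Cyp3a25 and 53.1% for Cyp3a11 and Cyp3a59, while Cyp3a11 and the unrelated Nr1i2 window shared 43.5%. Cyp3a13 stood outside both groups, with 47.9% to 53.9% identity to the other Cyp3a windows.

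The windows of Cyp3a11, Cyp3a25, Cyp3a57 and Cyp3a59 held 2 half-sites each. Those of Cyp3a41a, Cyp3a41b and Cyp3a44 held 1 each, and those of Cyp3a13, Cyp3a16 and Nr1i2 held 0. In Cyp3a11 the 2 half-sites lay at -162 to -157 and -142 to -137 relative to the start. On either strand, 24.2% of 32851 mouse promoter windows of the same length held a half-site. The spaced pairs that PXR is known to bind, direct repeats with 3 or 4 bases between half-sites and everted repeats with 6 bases between them, occurred in 0 of these windows, and in 0.0122%, 0.0244% and 0.00913% of all windows. A missing match says only that these letters are not in this window.

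Each level below is a log2 processed signal, from which the array's own 75th percentile was subtracted on the log2 scale, so that 0 is the level of that percentile and a difference of 1 is a doubling. Differences were tested with limma over all 26396 genes, with Benjamini-Hochberg adjusted p and a threshold of 0.05. That percentile lay between 314.6 and 529.4 signal units, and each array had 56.8% to 61.9% of its probes above background. All 12 hepatocyte marker genes examined were above background on all 12 arrays. Akp3 was above background on 0 of the 12 arrays, in both genotypes, so it does not check the genotype labels in liver.

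Some arrays stood apart, which bears on every comparison. On the first principal component, which held 55.4% of the variance, 4 vehicle arrays (KO 1 and 3, WT 2 and 3) lay at 74.1 to 88.1, and the other 8 lay between -57.3 and -11.3. All 3 WT vehicle arrays had higher medians of the small intestine list, at 0.71 to 2.57 above the mean of the 12 arrays, against at most 0.10 on any other array. Of the 15 genes in that list, 10 to 15 were above background on the WT vehicle arrays and 6 to 9 on the others, and the defining genes Cdx1, Cdx2 and Cdh17 were above background on 1 of the 12 arrays each. The log2 summed level of the list, in which Fabp2 and Apoa4 were above background on all 12 arrays, was not highest there, at 7.96 to 8.82 in KO IIAEK, 7.74 to 8.69 in KO vehicle, 7.79 to 7.95 in WT IIAEK and 7.52 to 8.39 in WT vehicle livers. WT vehicle 1 also carried pancreas transcripts, at a list median of 2.90. WT IIAEK 1 had the next highest median, 0.45. All 15 genes of that list were above background on these arrays, against 9 to 12 on the others. WT IIAEK 3 carried female-biased liver transcripts, described with Cyp3a44 below. Replicate 1 of every group was on one slide and replicates 2 and 3 on another.

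**Figure D1:**
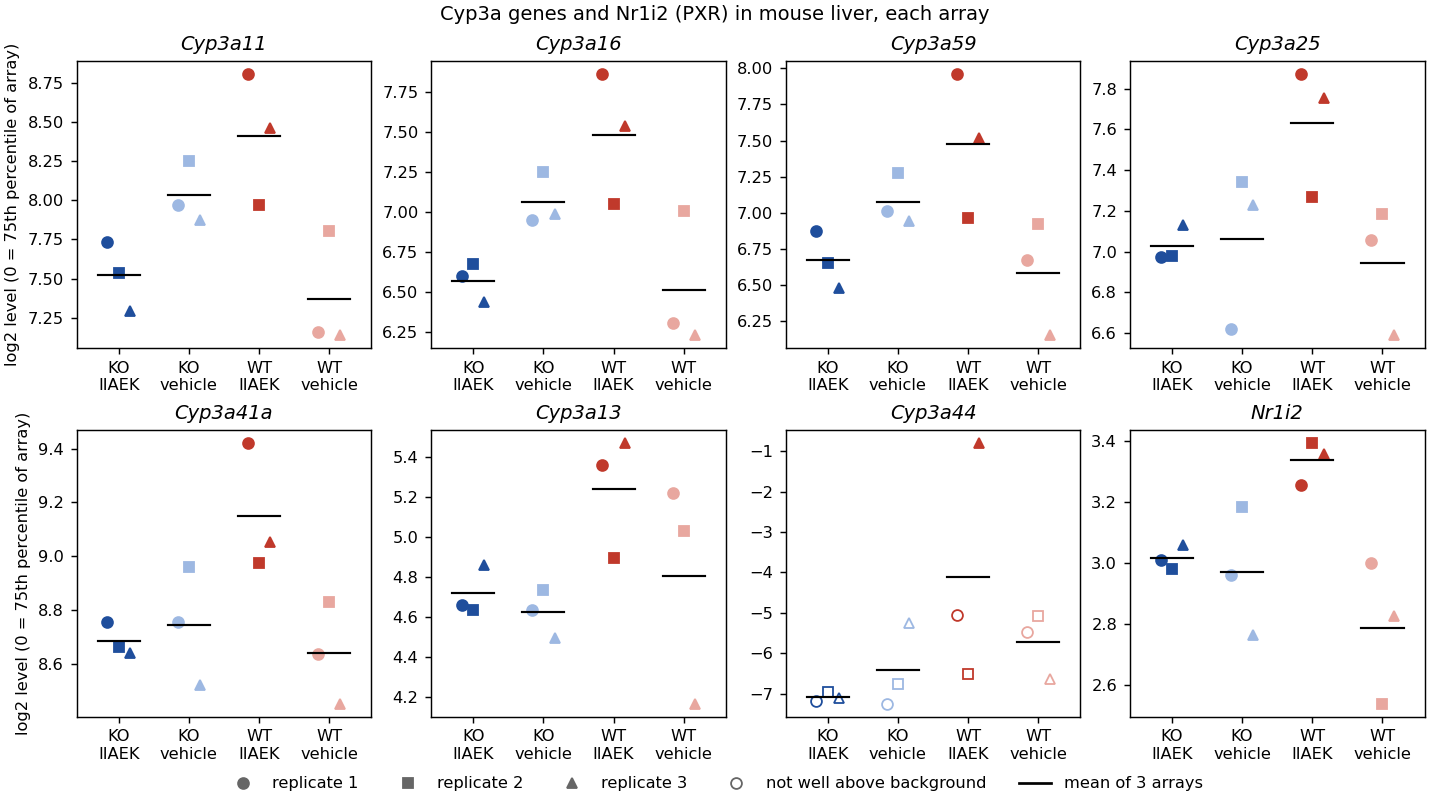
Log2 level of each gene (y axis, 0 is the 75th percentile of the array) on each of the 3 arrays of a group (x axis); lines are means of 3 arrays and open symbols mark arrays where the probe was not well above background. Cyp3a11, Cyp3a16 and Cyp3a59 lie higher on the 3 WT IIAEK arrays than on the 3 WT vehicle arrays, and lower on the 3 KO IIAEK arrays than on the 3 KO vehicle arrays; Cyp3a44 is above background on 1 array.

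Cyp3a11, which oxidizes steroids, bile acids and drugs, was higher with IIAEK in wild-type liver and lower with IIAEK in knockout liver, but neither difference passed the threshold. Its levels were 8.80, 7.97 and 8.46 on the WT IIAEK arrays, against 7.16, 7.80 and 7.14 on the WT vehicle arrays. The groups did not overlap, although WT vehicle 2 came close to WT IIAEK 2. The difference was 1.04 (SE 0.25), or 2.06-fold, with adjusted p = 0.393 in limma and unadjusted p = 0.00161, which ranked 77 of 26396 genes. In knockout liver the levels were 7.73, 7.53 and 7.29 on the KO IIAEK arrays, against 7.97, 8.25 and 7.87 on the KO vehicle arrays. Those groups did not overlap either, in the opposite direction. That difference was -0.51 (SE 0.25, limma adjusted p = 0.664). The order of the group means was 8.41 ± 0.42 for WT IIAEK, 8.03 ± 0.20 for KO vehicle, 7.52 ± 0.22 for KO IIAEK and 7.37 ± 0.38 for WT vehicle (SD, n = 3 each). In that order KO vehicle and KO IIAEK did not overlap, and the other neighbours did.

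Cyp3a16 followed Cyp3a11 closely, with r = 0.98 between them over the 12 arrays. Its levels were 7.86, 7.05 and 7.54 on the WT IIAEK arrays, against 6.31, 7.002 and 6.23 on the WT vehicle arrays. In knockout liver they were 6.60, 6.67 and 6.44 on the KO IIAEK arrays, against 6.95, 7.25 and 6.99 on the KO vehicle arrays. The groups did not overlap in either genotype, and the directions were opposite. The IIAEK difference was 0.97 (SE 0.25) in wild-type liver and -0.49 (SE 0.25) in knockout liver, with limma adjusted p = 0.393 and 0.664. Cyp3a16 is known from fetal and newborn mouse liver, yet its probe was above background on all 12 arrays of these adult mice. Whether that probe also reads Cyp3a11 or another close family member was not tested, and members with near-identical sequences may not be separate measurements.

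Cyp3a59, another member of the family, had a pattern like that of Cyp3a11 and Cyp3a16, with r = 0.96 to each over the 12 arrays. Its levels were 7.96, 6.96 and 7.52 on the WT IIAEK arrays, against 6.68, 6.93 and 6.15 on the WT vehicle arrays. WT IIAEK 2 and WT vehicle 2 were nearly level, so these groups all but met. In knockout liver the levels were 6.88, 6.65 and 6.48 with IIAEK, against 7.01, 7.28 and 6.94 with vehicle. The IIAEK difference was 0.89 (SE 0.27) in wild-type liver and -0.41 (SE 0.27) in knockout liver, with limma adjusted p = 0.393 and 0.664.

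Cyp3a25, a P450 of adult liver, differed with IIAEK in wild-type liver, at 7.87, 7.27 and 7.75 on the WT IIAEK arrays against 7.06, 7.18 and 6.59 on the WT vehicle arrays. In knockout liver the groups overlapped, at 6.98, 6.98 and 7.13 with IIAEK against 6.62, 7.34 and 7.23 with vehicle. The differences were 0.69 (SE 0.24) in wild-type liver and -0.04 (SE 0.24, 95% interval -0.56 to 0.49) in knockout liver, and neither passed in limma. Its closest companion was Cyp3a57, which is outside the list, with r = 0.98 over the 12 arrays. Cyp3a57 differed by 0.63 (SE 0.24) with IIAEK in wild-type liver and by 0.04 (SE 0.24) in knockout liver. Cyp3a59 shares 94.8% of its promoter window with Cyp3a25, but over the arrays Cyp3a25 correlated less with Cyp3a59 (r = 0.83) than with Cyp3a57.

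Cyp3a41a, known as a female-predominant enzyme in adult mice, was above background on all 12 arrays of these male livers. Its levels were 9.42, 8.97 and 9.05 on the WT IIAEK arrays, against 8.64, 8.83 and 8.45 on the WT vehicle arrays. On the knockout arrays they were 8.76, 8.66 and 8.64 with IIAEK, against 8.75, 8.96 and 8.52 with vehicle. The WT IIAEK arrays were above all 9 others, and the other 3 groups overlapped. The IIAEK difference was 0.51 (SE 0.17) in wild-type liver and -0.06 (SE 0.17) in knockout liver, and neither passed in limma. Cyp3a41b is a near copy of it, and whether the Cyp3a41a probe also reads RNA of Cyp3a41b or another family member was not tested.

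Cyp3a13, a member expressed in intestine as well as liver, had the least clear difference. Its levels were 5.36, 4.90 and 5.47 on the WT IIAEK arrays, against 5.22, 5.03 and 4.17 on the WT vehicle arrays. The groups overlapped, and a single array, WT vehicle 3, was the lowest of all 12. In knockout liver the levels were 4.66, 4.64 and 4.86 with IIAEK, against 4.64, 4.74 and 4.50 with vehicle. The IIAEK difference was 0.44 (SE 0.26, adjusted p = 0.445 in limma) in wild-type liver and 0.10 (SE 0.26) in knockout liver. The part of the intestinal transcripts on the WT vehicle arrays in these levels was not tested. Without WT vehicle 1, which carried pancreas transcripts, and WT vehicle 2, which had the highest small intestine median, the difference in wild-type liver was 1.07. The WT vehicle array then left was WT vehicle 3, that lowest array, whose small intestine median was 0.75. When the 4 vehicle arrays standing apart were left out the difference was 0.02.

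Nr1i2, the gene of PXR itself, was higher on every WT IIAEK array than on any other array. Its levels were 3.26, 3.39 and 3.36 on the WT IIAEK arrays, against 3.00, 2.54 and 2.83 on the WT vehicle arrays. On the knockout arrays they were 3.01, 2.98 and 3.06 with IIAEK, against 2.96, 3.18 and 2.76 with vehicle, and those groups overlapped. The IIAEK difference was 0.55 (SE 0.16), or 1.46-fold, in wild-type liver (limma adjusted p = 0.393), and 0.05 (SE 0.16, 95% interval -0.30 to 0.40) in knockout liver. Averaged over both genotypes it was 0.30 (SE 0.11), with limma adjusted p = 0.185.

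Counted together, 7 of 7 tested genes were higher with IIAEK than with vehicle in wild-type liver, with a median difference of 0.69, against 0.05 for all genes tested. In 6 of the 7 the groups did not overlap, and among all genes 7.25% had every IIAEK array above every vehicle array and 5.7% had every one below. At adjusted p, 0 of 7 passed in limma, where 0.00379% of all genes did. At unadjusted p under 0.05 there were 6 of 7, where 12.6% of all genes were. The list was chosen with earlier results of these data known, so its shares beside those of all genes are a description. In knockout liver 2 of 7 were higher with IIAEK and 5 lower, with a median of -0.06, against 0.04 for all genes. There 0 of 7 passed in limma (0% of all genes), and 0 of 7 had an unadjusted p under 0.05 (6.29% of all genes). The IIAEK arrays were all below the vehicle arrays for 3 of 7, Cyp3a11, Cyp3a16 and Cyp3a59, as for 6.25% of all genes, and all above for 0 of 7, as for 8.77% of all genes.

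Lists of other cell types differed in direction. Bile duct markers were lower in 9 of 10 genes in each genotype (medians -0.90 in both), stellate cell and fibroblast markers in 11 of 12 in knockout (-0.47) and 12 of 12 in wild-type liver (-0.73), and macrophage markers in 12 of 13 in knockout (-0.67) and 11 of 13 in wild-type liver (-0.60). Liver endothelial markers were higher in 6 of 10 genes in knockout (0.07) and 7 of 10 in wild-type liver (0.09). Red blood cell markers were lower in 4 of 5 in knockout (-1.33) and higher in 3 of 5 in wild-type liver (0.10). Among these lists 1 gene passed in limma, Tagln, a smooth muscle protein in the stellate cell and fibroblast list, at -1.42 (SE 0.15, adjusted p = 0.0380) in wild-type liver; it is named after its value was seen. The small intestine list had a median of 0.15 in knockout and -2.89 in wild-type liver over its 9 tested genes. A gene was tested if above background on all 3 arrays of some group, so dim genes could enter through WT vehicle alone. The wild-type median of this list may thus be partly set by that filter. On the 4 vehicle arrays that stood apart, list medians relative to the 12-array mean were 0.75 to 0.87 for bile duct markers. They were 0.45 to 0.67 for stellate cell and fibroblast markers and 0.47 to 0.64 for macrophage markers. On KO vehicle 2 these 3 lists were at -0.34, -0.12 and -0.36, and on WT vehicle 1 at -0.36, -0.57 and -0.44. On the IIAEK arrays they ran from -0.75 to -0.25, -0.61 to 0.33 and -0.85 to 0.35. The part of all these lists in the Cyp3a differences was not tested.

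The counts of Cyp3a genes and Nr1i2 also depended on the arrays that stood apart. Without the 4 vehicle arrays, which leaves 1 vehicle array in each genotype, assumed to vary like the other groups, 7 of 7 were higher with IIAEK in wild-type liver and 3 of 7 had an unadjusted p under 0.05. The Cyp3a11 difference was then 1.25 (SE 0.33), and that of Nr1i2 0.34 (SE 0.15). Without WT vehicle 1 and 2, which leaves 1 WT vehicle array under the same assumption, 7 of 7 were higher, the Cyp3a11 difference was 1.27 (SE 0.32), and 0 of 7 passed in limma. Without WT vehicle 1 alone, 2 of 7 passed in limma, Nr1i2 (0.65, adjusted p = 0.0334) and Cyp3a11 (0.94, adjusted p = 0.0473), while 3940 genes in all passed. Without WT IIAEK 3, 7 of 7 were higher and the Cyp3a11 difference was 1.02 (SE 0.29). Within slides, the Cyp3a11 difference in wild-type liver was 1.65 on slide 1, with 1 array per group, and 0.74 on slide 2, with 2 per group. That of Nr1i2 was 0.26 on slide 1 and 0.69 on slide 2.

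**Figure D2:**
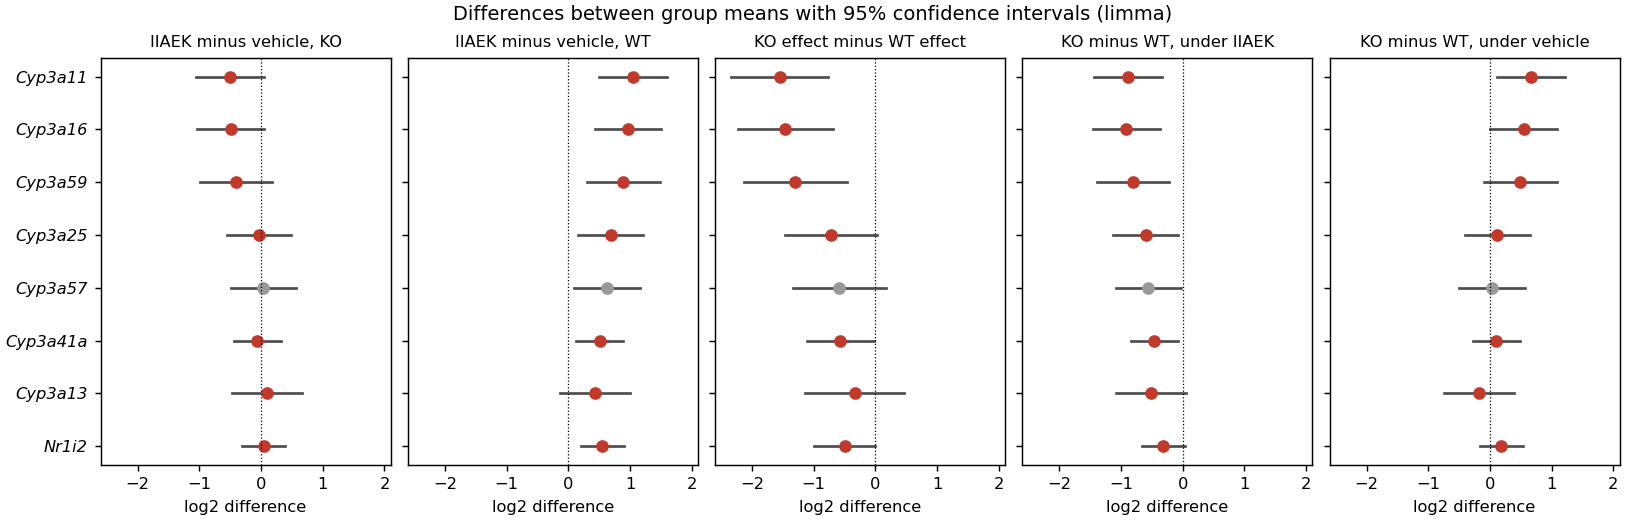
Log2 difference between group means (x axis) for each tested gene (y axis), with 95% confidence intervals from limma, in 5 comparisons; Cyp3a57, in grey, is outside the list. All 8 genes lie above 0 for IIAEK in WT liver and below 0 for the KO effect minus the WT effect, and none passed at an adjusted p of 0.05.

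The response to IIAEK was also set against genotype directly. The difference between the IIAEK effects, knockout minus wild type, was -1.55 (SE 0.35) for Cyp3a11, which ranked 6 of 26396 genes by unadjusted p (0.00113, limma). It was -1.46 (SE 0.35) for Cyp3a16, at rank 14, and -1.30 (SE 0.38) for Cyp3a59, at rank 39. No gene on the array passed for this contrast (0% of all genes), and the limma adjusted p of these members was 0.999999. Cyp3a25 followed with -0.72 (SE 0.34), Cyp3a41a with -0.57 (SE 0.24), Nr1i2 with -0.50 (SE 0.22) and Cyp3a13 with -0.34 (SE 0.36). All 7 were below 0, with a median of -0.72 against 0.01 for all genes. At unadjusted p under 0.05 there were 5 of 7, against 1.56% of all genes. These ranks and shares are a description too, as the list was chosen with earlier results known. On slide 1 alone the Cyp3a11 difference was -1.88, and on slide 2 alone it was -1.39. With the same 4 vehicle arrays left out it was -1.99, and with WT IIAEK 3 left out -1.53.

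Under IIAEK, Cyp3a and Nr1i2 levels were lower in knockout than in wild-type liver, though none passed the threshold. All 7 tested genes were lower on every KO IIAEK array than on any WT IIAEK array, while 14.6% of all genes were, and 13% were higher on every one. The differences ran from -0.91 (SE 0.25) for Cyp3a16 and -0.89 (SE 0.25) for Cyp3a11 to -0.32 (SE 0.16) for Nr1i2, with limma adjusted p = 0.628, and 0 of 7 passed (0.00758% of all genes). At unadjusted p under 0.05 there were 5 of 7, against 7.83% of all genes. This contrast uses none of the vehicle arrays in its means. Its SE and p still draw on the spread within all 4 groups, so the vehicle arrays that stood apart bear on them. Without WT IIAEK 3 the Cyp3a11 difference was -0.87 (SE 0.29). A smaller share of hepatocytes and less RNA per cell cannot be told apart in whole liver. The hepatocyte marker list had medians of -0.10 to 0.15 relative to the 12-array mean on the KO IIAEK arrays and of 0.10 to 0.25 on the WT IIAEK arrays, and its tested genes were lower in KO IIAEK livers in 11 of 12 (median -0.14). Medians of other lists were further from 0 in this contrast. Stellate cell and fibroblast markers were higher in 10 of 12 (0.62), red blood cell markers lower in 4 of 5 (-1.18) and female-biased genes lower in 13 of 15 (-1.07), against a median of -0.02 for all genes. The part of these lists in the result was not tested.

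Under vehicle the genotypes ran the other way for Cyp3a11, Cyp3a16 and Cyp3a59. Cyp3a11 was 0.66 (SE 0.25) higher in KO vehicle than in WT vehicle livers, Cyp3a16 0.55 (SE 0.25) and Cyp3a59 0.49 (SE 0.27), all with limma adjusted p = 0.737. The arrays did not overlap for Cyp3a11 and Cyp3a59, and 3.15% of all genes had every KO vehicle array above every WT vehicle array and 5.29% had every one below. The other 4 genes lay between -0.18 (Cyp3a13) and 0.18 (Nr1i2). In limma 0 of 7 passed (0.00379% of all genes), and 2 of 7 had an unadjusted p under 0.05, against 6.62%. Without WT vehicle 1 and 2 the Cyp3a11 difference was 0.89 (SE 0.32), and with the 4 vehicle arrays left out it was 1.09 (SE 0.40). Both genotype comparisons share their arrays with the IIAEK comparisons, so the 4 sets of values are not separate evidence.

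Averaged over genotypes, the differences with IIAEK were 0.23 to 0.33, positive in 7 of 7 genes. The groups of 6 arrays overlapped in all 7, while 0.398% of all genes had every IIAEK array above and 0.269% below every vehicle array. In limma 0 of 7 passed (0% of all genes), and 1 of 7, Nr1i2, had an unadjusted p under 0.05 where 22.8% of all genes did.

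**Figure D3:**
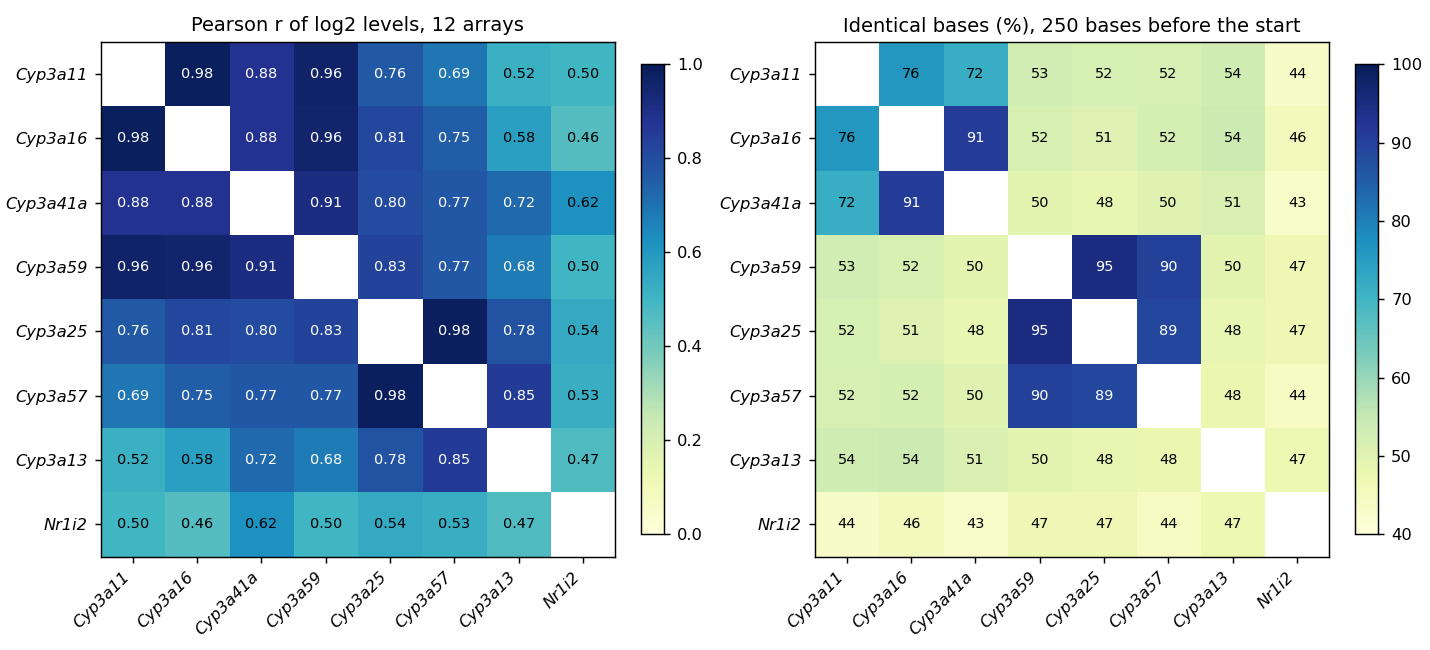
Left, Pearson r of log2 levels over the 12 arrays for pairs of the 7 tested genes and Cyp3a57; right, percentage of identical bases in the 250 bases before the start. Cyp3a11, Cyp3a16 and Cyp3a59 correlate at 0.96 or more while the Cyp3a59 promoter is 95% identical to that of Cyp3a25 and 53% to that of Cyp3a11; Nr1i2 correlates at 0.46 to 0.62 with the others.

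Over all 12 arrays, 2 sets of genes were closely correlated by level, and not every member belonged clearly to 1 of them. Cyp3a11, Cyp3a16 and Cyp3a59 correlated at 0.96 to 0.98, and Cyp3a41a at 0.88 to 0.91 with these. Cyp3a25 and Cyp3a57 formed the other set at 0.98. Cyp3a13 was nearest to Cyp3a57 (r = 0.85), but its r with Cyp3a25 (0.78) was below that of Cyp3a25 with Cyp3a59 (0.83). Over the 8 arrays that did not stand apart the sets were closer, with r of 0.89 to 0.93 between Cyp3a25 and each of Cyp3a11, Cyp3a16, Cyp3a59 and Cyp3a41a. Nr1i2 had r of 0.46 to 0.62 with the others. With Cyp3a11 it was 0.50 over 12 arrays and 0.73 over those 8. The points of each correlation share arrays and scaling, so these values are a description. Over the 12 arrays Cyp3a59 sat with Cyp3a11 by level and with Cyp3a25 by promoter letters.

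Among all other tested genes without a Cyp3a name, the one most like Cyp3a11 over the 12 arrays was Gm14488, with r = 0.95. It was the only one above 0.9. Whether its probe or those named by transcript read RNA of the family was not tested. It was followed by AK165002 (0.86), Coa3, an assembly factor of cytochrome c oxidase (0.85), Gadd45g, a stress response gene (0.84), and the transcript ENSMUST00000119487 (0.82). Over the 8 arrays that did not stand apart, r was 0.95 for Gm14488 and 0.94 for Gadd45g. For Nr1i2, 29 genes had r above 0.9. The nearest were Rab21, a GTPase of endosome traffic (0.97), She (0.96), the transcript BY368588 (0.95), ENSMUST00000111353 (0.94) and Akap8, a nuclear anchor of protein kinase A (0.94).

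Cyp3a44, known as a female-specific enzyme in adult mouse liver, was above background on 1 of the 12 arrays, WT IIAEK 3. Its processed signal there was 243.4, against 9.54 and 4.47 on the other 2 WT IIAEK arrays. It was 2.65 to 3.86 on the KO IIAEK arrays, 3.41 to 13.9 on the KO vehicle arrays and 5.10 to 13.2 on the WT vehicle arrays, not well above background on any of them. On the log2 scale the level of -0.79 on WT IIAEK 3 was at least 16.2-fold above the highest limit of the 11 other arrays, where an array's limit is the lowest signal it measured above background or its own value if higher. As group means, with 1 of 3 arrays measured, WT IIAEK lay 2.13-fold above the limits of KO IIAEK, 2.34-fold above those of KO vehicle and 1.97-fold above those of WT vehicle. WT IIAEK 1 and 2 entered that mean with values not above background, so these folds are not lower bounds. These group folds rest on that single array.

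The same array was high for other female-biased liver genes. It had the highest level of the 12 arrays for 15 of 20 such genes, and all 20 were above background there, against 13 to 17 on the others. Cyp2b13, a female-biased P450, was at 5.96 there and at most -1.56 on the 11 other arrays. Slc22a26, an organic anion transporter, was at 3.01 there and at most -4.76 elsewhere. Sult3a1, a sulfotransferase, and A1bg, a plasma protein, were above background on this array and on 0 of the 11 others. The 20 male-biased genes had a list median of -0.68 there against the 12-array mean, where the other WT IIAEK arrays had 1.11 and 1.33, and the 4 vehicle arrays that stood apart had -1.997 to -1.33.

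Transcripts of the sex chromosomes were also read on that array. Xist, the RNA of the inactive X chromosome, was above background on 0 of 12 arrays, and the Y-linked genes Ddx3y, Kdm5d, Eif2s3y and Uty on all 12. Eif2s3y was at 1.87 on WT IIAEK 3 and at 2.08 to 2.71 on the 11 others, so the Y-linked level was lowest there. These 5 genes were chosen after the levels of Cyp3a44 had been seen. Cyp3a41a, the other female-predominant member, was at 9.05 on WT IIAEK 3 and at 9.42 and 8.97 on the other 2 WT IIAEK arrays. Its probe, whose reading of other family members was not tested, thus did not single out this array. Red blood cell transcripts were highest there, at a list median of 2.03 above the 12-array mean, and their part was not tested.

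**Figure D4:**
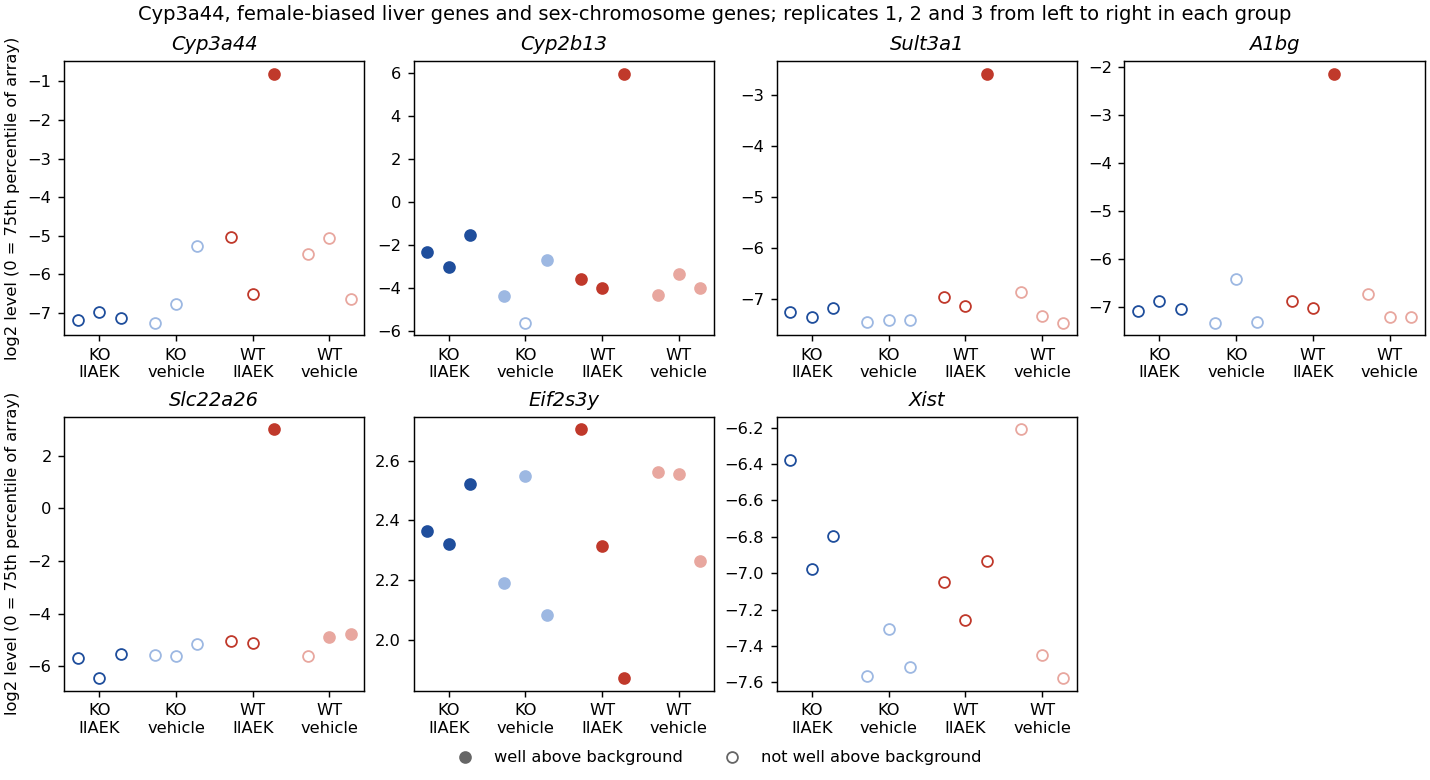
Log2 level (y axis) of Cyp3a44, 4 female-biased liver genes, the Y-linked gene Eif2s3y and Xist on each array, with replicates 1, 2 and 3 from left to right in each group (x axis); open circles mark arrays where the probe was not well above background. WT IIAEK 3 lies above all 11 other arrays for Cyp3a44 and the 4 female-biased genes, while Eif2s3y is present at 1.87 and Xist is at background.

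The wider PXR pathway was described from lists of known genes. Of 26 other PXR target genes 22 were tested, and in wild-type liver 13 were higher and 9 lower with IIAEK, with a median of 0.21, against 0.05 for all genes. In knockout liver 8 were higher and 14 lower, with a median of -0.19, against 0.04. In limma 0 of 22 passed in either genotype. At unadjusted p under 0.05 there were 5 higher and 1 lower in wild-type liver, and 1 higher and 4 lower in knockout liver, while 12.6% of all genes in wild-type and 6.29% in knockout liver had such a p. Of all genes, 55.2% were higher with IIAEK in wild-type and 55.7% in knockout liver. For the difference between the IIAEK effects, 17 of the 22 were below 0, with a median of -0.55 against 0.01 for all genes. Under IIAEK 19 of the 22 were lower in knockout liver than in wild-type liver, with a median of -0.22 against -0.02.

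Ces2a, a liver carboxylesterase, and Por had the smallest p of this list. Ces2a levels were 5.09, 4.89 and 4.72 on the WT IIAEK arrays, against 3.27, 3.05 and 2.96 on the WT vehicle arrays. The difference was 1.80 (SE 0.37, adjusted p = 0.393 in limma), and the groups did not overlap. In knockout liver they were 3.96, 3.46 and 3.65 with IIAEK, against 2.69, 4.55 and 3.31 with vehicle, which overlapped (0.17, SE 0.37). Without KO vehicle 1 the knockout difference was -0.24, and without KO vehicle 2 it was 0.69. Without WT vehicle 1 the wild-type difference passed (1.89, limma adjusted p = 0.0308), where 3940 genes in all passed. The difference between the effects was -1.63 (SE 0.53, adjusted p = 0.999999 in limma).

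Por, the reductase that passes electrons to microsomal P450 enzymes, was lower with IIAEK in both genotypes, with overlap in wild-type liver. Its levels were 5.71, 6.58 and 6.44 on the WT IIAEK arrays, against 6.79, 6.32 and 6.77 on the WT vehicle arrays, a difference of -0.39 (SE 0.24), which was -0.12 without WT IIAEK 1. In knockout liver they were 5.96, 6.32 and 6.32 with IIAEK, against 7.36, 7.05 and 7.06 with vehicle, a difference of -0.96 (SE 0.24). The knockout groups did not overlap, and the adjusted p was 0.664 in limma. Of the 15 tested genes of P450 electron supply and haem synthesis and turnover, 12 were higher with IIAEK in each genotype, with medians of 0.36 in knockout and 0.47 in wild-type liver. In limma 0 of 15 passed. At unadjusted p under 0.05 there was 1 in knockout (6.29% of all genes) and 6 in wild-type liver (12.6% of all genes). Blvrb, a biliverdin reductase, differed by 0.45 (SE 0.26) in knockout and 0.90 (SE 0.26) in wild-type liver. The knockout value was 0.21 without KO vehicle 1 and 0.76 without KO vehicle 2. The wild-type value passed without WT vehicle 1 (1.07, limma adjusted p = 0.0341), where 3940 genes in all passed.

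The partners and coregulators of PXR include its dimer partners and coactivators. Of 20 tested genes, 14 were higher with IIAEK in each genotype, with medians of 0.24 in knockout and 0.16 in wild-type liver. In limma 0 of 20 passed. At unadjusted p under 0.05 there were 2 in knockout (6.29% of all genes) and 1 in wild-type liver (12.6% of all genes). Ppargc1a, a coactivator that rises in fasting liver, was at 1.08, 1.17 and 1.07 on the KO IIAEK arrays, against 3.29, 1.70 and 1.13 on the KO vehicle arrays. It was at 2.05, 1.71 and 1.73 on the WT IIAEK arrays, against 2.17, 3.22 and 3.08 on the WT vehicle arrays. The averaged IIAEK difference was -0.96 (SE 0.33, adjusted p = 0.181 in limma), and the highest values were on 3 of the 4 vehicle arrays that stood apart. Rxrg, a retinoid X receptor, differed by 0.75 (SE 0.25, adjusted p = 0.181 in limma) over both genotypes. Its lowest levels, -0.29 to 0.36, were on the 4 vehicle arrays that stood apart. KO vehicle 2 (1.01) and WT vehicle 1 (1.13) lay within the range of the IIAEK arrays, 0.88 to 1.38.

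**Figure D5:**
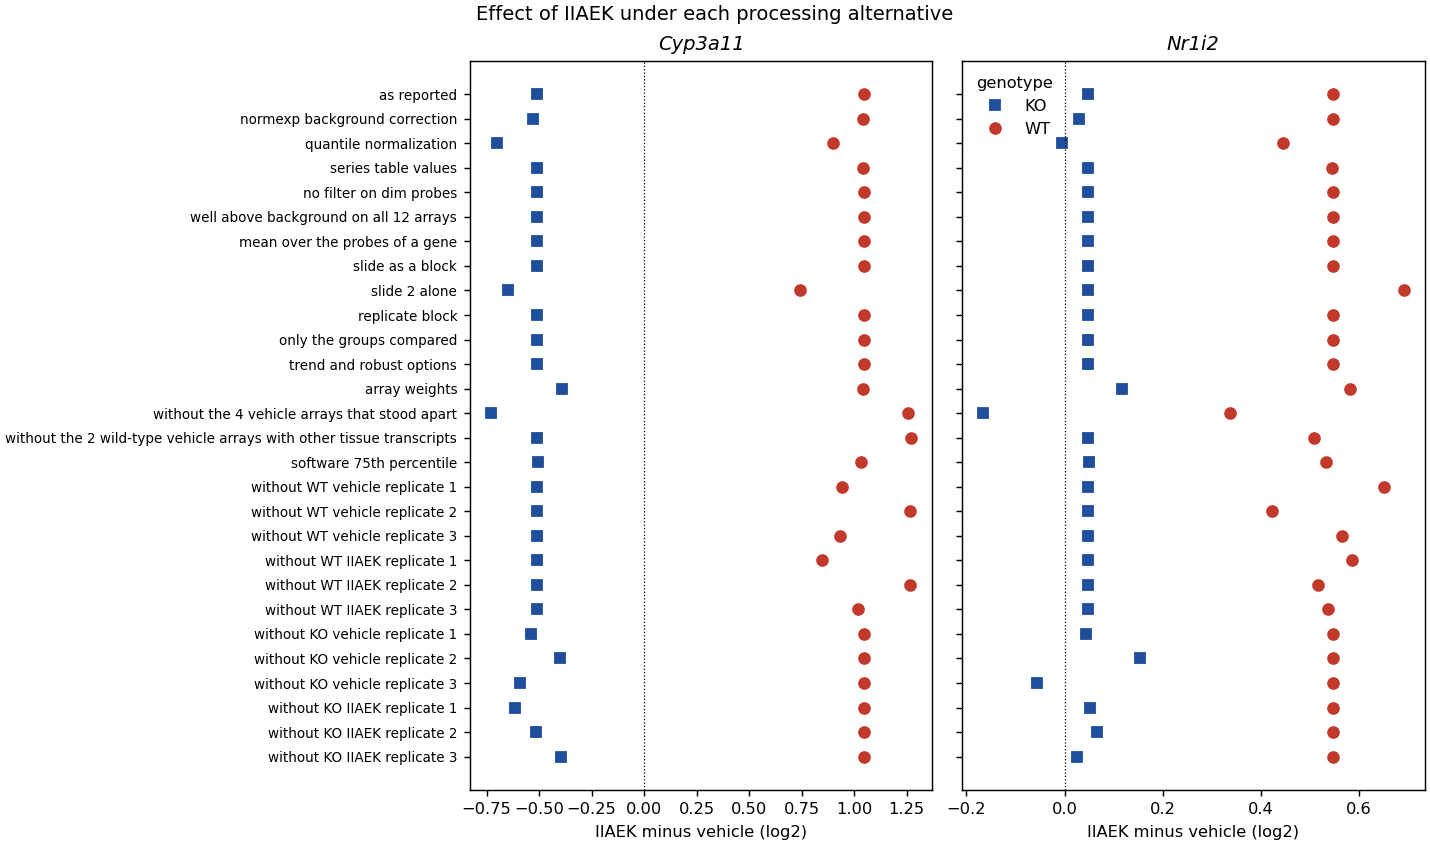
IIAEK minus vehicle on the log2 scale (x axis) for Cyp3a11 and Nr1i2 in KO (squares) and WT (circles) liver, as reported and under each of 27 alternatives (y axis). Cyp3a11 stays between -0.73 and -0.39 in KO liver and between 0.74 and 1.27 in WT liver, while Nr1i2 crosses 0 in KO liver and stays between 0.34 and 0.69 in WT liver.

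Over the 27 alternatives, the Cyp3a11 difference with IIAEK ran from -0.73 to -0.39 in knockout liver and from 0.74 to 1.27 in wild-type liver. That of Nr1i2 ran from -0.17 to 0.15 in knockout liver and from 0.34 to 0.69 in wild-type liver. The limma adjusted p of Cyp3a11 in wild-type liver ran from 0.0473 to 0.737 over them, and that of Nr1i2 from 0.0334 to 0.737.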

How the data were processed

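Liver RNA was labelled with Cy3 and read on 12 one-colour arrays with Agilent Feature Extraction 10.7.3.1, per the file headers. The deposited scanner files hold a processed intensity per spot, background-subtracted by that software. The deposited series table holds log2 values that matched log2 intensity minus the array's 75th percentile, centred per probe (r 0.99998 to 0.999996 per array). The steps between are not given in the sources used here.

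Spots called non-uniform were left out (19 over all arrays), 0 spots were saturated, and spots of a probe were averaged, which gave 56605 probes from 59305 spots. Probes were named by RefSeq transcript (32994 probes). The other probes kept their own accession, and each such accession counted as a gene in all shares and ranks. The headers give the build mm9 and the name and promoter tables GRCm38.p6, so no array coordinates are printed. A gene was its brightest probe and was tested if all 3 arrays of some group had it above background. Limma 3.58.1 in R 4.3.3 was fitted to all 12 arrays with 4 group means (8 residual degrees of freedom), two-sided, with Benjamini-Hochberg adjustment over 26396 genes. It was tested on simulated data with independent noise for each gene. Those data held no arrays that stood apart, so that test cannot show how such arrays affect the fit. The number of arrays limits the precision, and p-values measure the spread between these mice.

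The genes and lists were chosen with earlier results of these data known. Named genes were the members, Cyp3a57, from each pathway list up to 4 genes past the threshold or otherwise the 2 with the smallest p, and the 5 genes most like Cyp3a11 and Nr1i2, of which 1 list gene is not reported here. Same-numbered arrays deviated together (r over 0.1) in 8 of 18 pairs, so numbers were not taken as pairs. Protein sequences were not used here. Alternatives covered background correction, scaling, filters, probe averaging, slide, replicate block, samples in the fit, trend and robust options, array weights, and left-out arrays. Scaling by the 75th percentile of the file headers, the sex-chromosome genes, and leaving out arrays for list genes were added after the data had been seen.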

Additional observations from a re-analysis of the deposited data

Results flagged for a closer look

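For 3 genes every WT IIAEK array was above every WT vehicle array while every KO IIAEK array was below every KO vehicle array, a pattern that 20 of 26396 genes (0.0758%) showed. In wild-type liver the nearest arrays barely separated for Cyp3a59 (6.96 with IIAEK and 6.93 with vehicle) and Cyp3a16 (7.05 with IIAEK and 7.002 with vehicle). The difference between the IIAEK effects, knockout minus wild type, was -1.55 for Cyp3a11, -1.46 for Cyp3a16 and -1.30 for Cyp3a59. The difference was tested as an interaction in limma and did not pass, with an adjusted p of 0.999999 for each. The median of the small intestine list, but not its summed level, was highest on the WT vehicle arrays, and its part in this pattern was not tested. Cyp3a11 and Cyp3a16 may not be separate measurements, since cross-hybridisation was not tested.

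Cyp3a44, which entered no comparison, had a level of -0.79 on WT IIAEK 3 and was not above background on the 11 other arrays. Other female-biased liver genes were high on that array, while Xist was at background and 4 Y-linked genes were present. What sets this mouse or array apart was not tested.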

How the results depend on the processing

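Under the 27 alternatives (26 for the interaction and the averaged effect), the number of members past the threshold stayed at 0 for IIAEK in knockout liver, both genotype comparisons and the interaction, also with each array left out (0 to 0). For IIAEK in wild-type liver it ran from 0 to 2 with an array left out. For the averaged effect it ran from 0 to 1, and both were highest without WT vehicle 1. Without that array 3940 genes in all passed in wild-type liver and 6564 for the averaged effect. Passing there was thus not particular to these members. The averaged effect also gave 1 member with array weights (Nr1i2, 0.35). Without WT vehicle 1 and 2 the averaged difference of Cyp3a13 was 0.59. That fit kept WT vehicle 3, whose small intestine median was 0.75. The fit with the replicate number as a block gave 0 members past the threshold in all 6 comparisons, and moved the count for all genes to 0, against 1 without the block, for IIAEK in wild-type liver, and to 0, against 2, for genotype under IIAEK. All genes past the threshold ran from 0 to 966 for IIAEK in knockout liver (966 with array weights), 0 to 3940 in wild-type liver and 0 to 8069 averaged (8069 with array weights), 0 to 58 and 0 to 54 for genotype under vehicle and IIAEK, and 0 to 1 for the interaction. The causes were not tested.

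Of 1280 recomputed differences of the family and Nr1i2, 24 turned sign, and their reported sizes were 0.03 to 0.23. For IIAEK in knockout liver, quantile normalization gave -0.0048 for Nr1i2 and -0.040 for Cyp3a57, slide 2 alone gave -0.11 for Cyp3a57, array weights gave 0.032 for Cyp3a41a, and leaving out the 4 vehicle arrays gave -0.017 for Cyp3a13, -0.17 for Nr1i2 and -0.23 for Cyp3a57. With an array left out, Cyp3a25 ran from -0.26 (without KO vehicle 1) to 0.10 and 0.047 (without KO vehicle 2 and 3), Cyp3a41a from -0.17 to 0.047 (without KO vehicle 2), Nr1i2 from -0.055 (without KO vehicle 3) to 0.15, and Cyp3a57 from -0.16 (without KO vehicle 1), with -0.034 without KO IIAEK 3, to 0.18. For genotype under vehicle, Cyp3a13 was 0.018 on slide 2, 0.034 with array weights and 0.46 without WT vehicle 1 and 2. With an array left out it ran from -0.50 to 0.024 (without WT vehicle 1), Cyp3a25 from -0.056 (without WT vehicle 3), with -0.020 without KO vehicle 2, to 0.34, Cyp3a41a from -0.0012 (without KO vehicle 2) to 0.22, and Cyp3a57 from -0.19 (without WT vehicle 3), with -0.10 and -0.030 without KO vehicle 2 and 3, to 0.23. For the averaged effect, quantile normalization gave -0.027 for Cyp3a41a. Dim signal limits Cyp3a44, which gives a bound on 11 of 12 arrays. Of the list genes recomputed with an array left out, Ces2a in knockout liver ran from -0.24 (without KO vehicle 1) to 0.69, and Cyp2c40 from -0.089, with -0.061 and -0.021 (without KO vehicle 1 and 3 and KO IIAEK 1), to 0.35.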

Other observations

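Lists of genes that mark a hepatocyte's position in the lobule, and of sex-biased liver genes, also had medians away from that of all genes (0.04 in knockout and 0.05 in wild-type liver). All 15 genes typical of perivenous hepatocytes, the zone richest in Cyp3a enzymes, were higher with IIAEK in knockout liver (median 0.46), and 13 of 15 in wild-type liver (median 0.96). In limma 0 of 15 passed. At unadjusted p under 0.05 there were 2 in knockout (6.29% of all genes) and 3 in wild-type liver (12.6% of all genes). Of the 15 tested periportal genes, 9 were lower in knockout and 10 in wild-type liver, with medians of -0.05 and -0.16. Of 19 tested male-biased genes, 19 were higher with IIAEK in each genotype (medians 1.28 in knockout and 1.43 in wild-type liver), with 0 past the threshold in limma, and 0 in knockout and 1 in wild-type liver at an unadjusted p under 0.05. Of 15 tested female-biased genes, 4 were higher in knockout and 9 in wild-type liver, with medians of -0.26 and 0.58. The wild-type value rests on WT IIAEK 3, without which 6 of 15 were higher and the median was -0.34. The 4 vehicle arrays that stood apart had the lowest perivenous levels. Their list medians were -1.23 to -0.62 relative to the 12-array mean, against 0.01 to 0.82 on the 8 others. Male-biased list medians were -1.997 to -1.33 on those 4 arrays, against 1.26 on both KO vehicle 2 and WT vehicle 1. They were 0.46 to 1.02 on the KO IIAEK arrays and -0.68 to 1.33 on the WT IIAEK arrays. The part of those 4 arrays in the list differences was not tested.

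Single genes of these lists varied with 1 array left out, and none passed with all 12 arrays. Tbx3, a perivenous transcription factor, differed by 1.24 (SE 0.47) with IIAEK in knockout and 1.04 (SE 0.47) in wild-type liver, and over the left-out arrays by 0.89 to 1.73 and 0.71 to 1.54. Aldh1b1, a periportal aldehyde dehydrogenase, differed by -1.09 (SE 0.68) in knockout liver, with a range from -1.92 (without KO vehicle 2) to -0.67 (without KO vehicle 3), and by -1.94 (SE 0.68) in wild-type liver. Cdh1, the adhesion protein E-cadherin, differed by -0.79 (SE 0.33) in knockout liver, or -0.42 without KO IIAEK 3, and by -0.63 (SE 0.33) in wild-type liver, or -0.36 without WT vehicle 3. Ugt2b38, a glucuronosyltransferase, differed by 0.65 (SE 0.41) in knockout liver, with 0.39 and 1.09 without KO vehicle 1 and 2, and by 0.99 (SE 0.41) in wild-type liver, or 0.62 without WT vehicle 3. Keg1 differed by 1.66 (SE 0.97) in knockout liver, with 0.999 and 2.70 without KO vehicle 1 and 2, and by 1.96 (SE 0.97) in wild-type liver, with 2.94 and 1.195 without WT vehicle 1 and 3.

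Sult1e1, the estrogen sulfotransferase, was at -3.13, -2.52 and -1.11 on the KO IIAEK arrays, against 4.79, -2.34 and 0.54 on the KO vehicle arrays. It was at -3.62, -2.08 and -2.69 on the WT IIAEK arrays, against -1.98, 5.17 and 4.38 on the WT vehicle arrays. The differences were -3.25 (SE 1.93) in knockout and -5.32 (SE 1.93) in wild-type liver, and the 3 highest levels were on vehicle arrays that stood apart. Without KO vehicle 1 the knockout value was -1.35 and without KO vehicle 2 it was -4.92. The P450 gene Cyp2c40 differed by 0.07 (SE 0.45) in knockout liver, or -0.089 without KO vehicle 1, and by 0.81 (SE 0.45) in wild-type liver, where it was 0.32 without WT IIAEK 3 and 0.40 without WT vehicle 3. Without WT vehicle 1, when 3940 genes passed in wild-type liver, Tbx3, Aldh1b1, Ugt2b38, Keg1 and Sult1e1 passed in limma (adjusted p 0.0294 to 0.0482).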
